A study of Mus musculus with 4 samples.

Results

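The genes of TGF-beta and BMP superfamily signalling were examined in a mouse podocyte line. Podocytes are epithelial cells of the kidney whose foot processes cover the glomerular capillaries. The members were fixed as a list of 46 gene symbols and were found by gene name in a table of 29286 gene rows. A row of its own was present for 45 of the 46, and 34 of these had a mean FPKM over the groups (fragments per kilobase of transcript, scaled to the mapped fragments of a library) of at least 1, among 10773 named genes at that level. The other 11 lay below that floor, and Bmpr2 was present only on a row that also carried a second gene name.

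The compared groups were podocytes that received 50 nM of a miR-93 mimic and podocytes that received 50 nM of a nontargeting (NT) mimic, with 2 libraries each. In both groups the cells were differentiated for 12 days in low-glucose medium and were transfected with a lipid reagent, and RNA was taken 48 hours later. Each FPKM was pooled by the authors over the 2 libraries of a group. No value of a single library was used, and library depth is unknown. No difference below therefore has an error or a replicate check, and no test was run. The line grows through a temperature-sensitive T antigen, and the labels do not say whether the libraries of a group came from separate cultures. In these bulk samples, fewer cells of a type and less RNA per cell cannot be told apart.

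The conditions carry only the names q1 and q2 in the table. The first was read as the miR-93 mimic, because its FPKM of 9.68 for Rps6ka4 (Msk2), against 14.7 in the second, is the pair that the study lists under the group names. If that reading is wrong, all directions given here turn round. Of the 11 podocyte markers checked, 8 passed the floor, with synaptopodin (Synpo) at 158 FPKM with either mimic. The podocyte transcription factor gene Wt1 had 2.06 FPKM with the miR-93 mimic and 1.42 FPKM with the NT mimic, podocalyxin (Podxl) had 1.66 FPKM with the miR-93 mimic and 2.33 FPKM with the NT mimic, and the slit diaphragm gene Nphs1 had 0.164 FPKM with the miR-93 mimic and 0.0387 FPKM with the NT mimic. Of the 6 endothelial markers 5 were below the floor, among them Pecam1 and Cdh5. Of the tubule markers, the water channel gene Aqp1 had 385 FPKM with the miR-93 mimic and 340 FPKM with the NT mimic, and the endocytic receptor gene Lrp2 (megalin) had 31.7 FPKM with the miR-93 mimic and 47.5 FPKM with the NT mimic. By the fold limit applied to the members further on, Wt1 was higher and Lrp2 lower with the miR-93 mimic. By that limit 1.83% of all named genes over the floor were higher and 3.77% lower. Wt1 was near the floor, and its ratio was the 113th from the highest of 1780 genes with a mean FPKM from 1 to 3 (percentile 93.7). The ratio of Lrp2 was the 40th from the lowest of 1749 genes from 30 to 100 FPKM (percentile 2.29). Summed over each list, FPKM was 2138 with the miR-93 mimic, against 2156 with the NT mimic for the podocyte markers, most of it vimentin (Vim), and 417 against 388 for the 6 tubule markers, most of it Aqp1, with 2 of the 6 over the floor and Umod at 0. For the endothelial markers the sums were 9.41 against 9.12 (Emcn at 0), for 6 mesangial and fibroblast markers 29.7 against 29.6, and for 5 macrophage markers 8.17 against 6.32 (Emr1 at 0). The endothelial marker over the floor was Ehd3, at 9.16 FPKM with the miR-93 mimic, against 8.88 FPKM with the NT mimic. In the same order, Pdgfrb (20.0 against 19.2), Dcn (8.16 against 9.26) and Gata3 (1.45 against 1.03) passed it from the mesangial list. From the macrophage list Cd68 (5.23 against 3.81) and Csf1r (2.89 against 2.49) did. The part of such cells in the results was not tested.

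Ligands of this superfamily are secreted as dimers and bring together type II and type I receptor kinases. The type II receptor phosphorylates the type I receptor, which in turn phosphorylates receptor-activated SMAD proteins. These join SMAD4 and enter the nucleus. TGF-beta and activin ligands work mainly through SMAD2 and SMAD3, and BMP ligands mainly through SMAD1, SMAD5 and SMAD9. Inhibitory SMADs, ubiquitin ligases, nuclear co-repressors and secreted antagonists hold the signal in check. In the glomerulus TGF-beta is best known for driving matrix deposition and podocyte loss, and BMP7 for opposing it.

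A microRNA recognises messages chiefly through its seed, which pairs with sites in 3′ UTRs and lowers the message or its translation. The mature strand of the mouse miRNA that the mimic represents is printed from RefSeq with its seed, bases 2 to 8, in capitals.

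mmu-miR-93-5p: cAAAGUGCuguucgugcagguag

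This mature strand lies at chr5:138165574-138165596 on the minus strand (GRCm38.p6). Counting miR-93-5p itself, 7 mature mouse miRNAs in RefSeq carry its seed, among them miR-17-5p, miR-20a-5p and miR-106b-5p. The matches below are therefore matches to all of them. The best match, an 8mer, reads GCACTTTA on the message. A 7mer-m8 lacks the final A, a 7mer-A1 lacks the first G, and a 6mer lacks both. The message strand of the longest 3′ UTR annotated in GENCODE M21 was searched. Among the 34 members over the floor Tgfbr2 was the one with an 8mer. Its site is shown with the 7mer-m8 sites of Ski, Skil, Smad5, Smad6 and Bmpr2, which were added after their values had been seen to let the flanks be compared. Capitals mark the match, and the letters around it are the neighbouring bases of the 3′ UTR.

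Tgfbr2 (8mer, bases 298 to 305): cagccaataacgtttGCACTTTAtta

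Ski (7mer-m8, bases 959 to 965): acatgtatttagaactGCACTTTgtc

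Skil (7mer-m8, bases 1047 to 1053): gggaagggcagcctttGCACTTTtct

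Smad5 (7mer-m8, bases 778 to 784): ttaatcttttcattttGCACTTTtat

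Smad6 (7mer-m8, bases 233 to 239): gagaaacaagaaagacGCACTTTggc

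Bmpr2 (7mer-m8, bases 201 to 207): ttgttttttaagttttGCACTTTtgt

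Of the members over the floor, the TGF-beta type II receptor gene Tgfbr2 and the activin subunit gene Inhbb were lower with the miR-93 mimic by a log2 ratio of 0.5 or more, and no member was higher by as much. The log2 ratio is that of FPKM plus 0.1, miR-93 mimic over NT mimic, and 0.5 corresponds to 1.41-fold. A gene past it is called lower or higher here. The 2 called lower were 5.88% of the 34 members, against 3.77% of all 10773 named genes over the floor. None of the members was called higher, against 1.83% of all genes. At a log2 ratio of 0.25 (1.19-fold), 5 members were lower (14.7%, against 17.4% of all genes) and 3 were higher (8.82%, against 6.12%). The median over the members was −0.11 and that over all genes −0.09, with 24 of the 34 members (70.6%) and 69.5% of all genes below 0. As a list, then, the members stood close to the background on each of these counts.

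**Figure D1:**
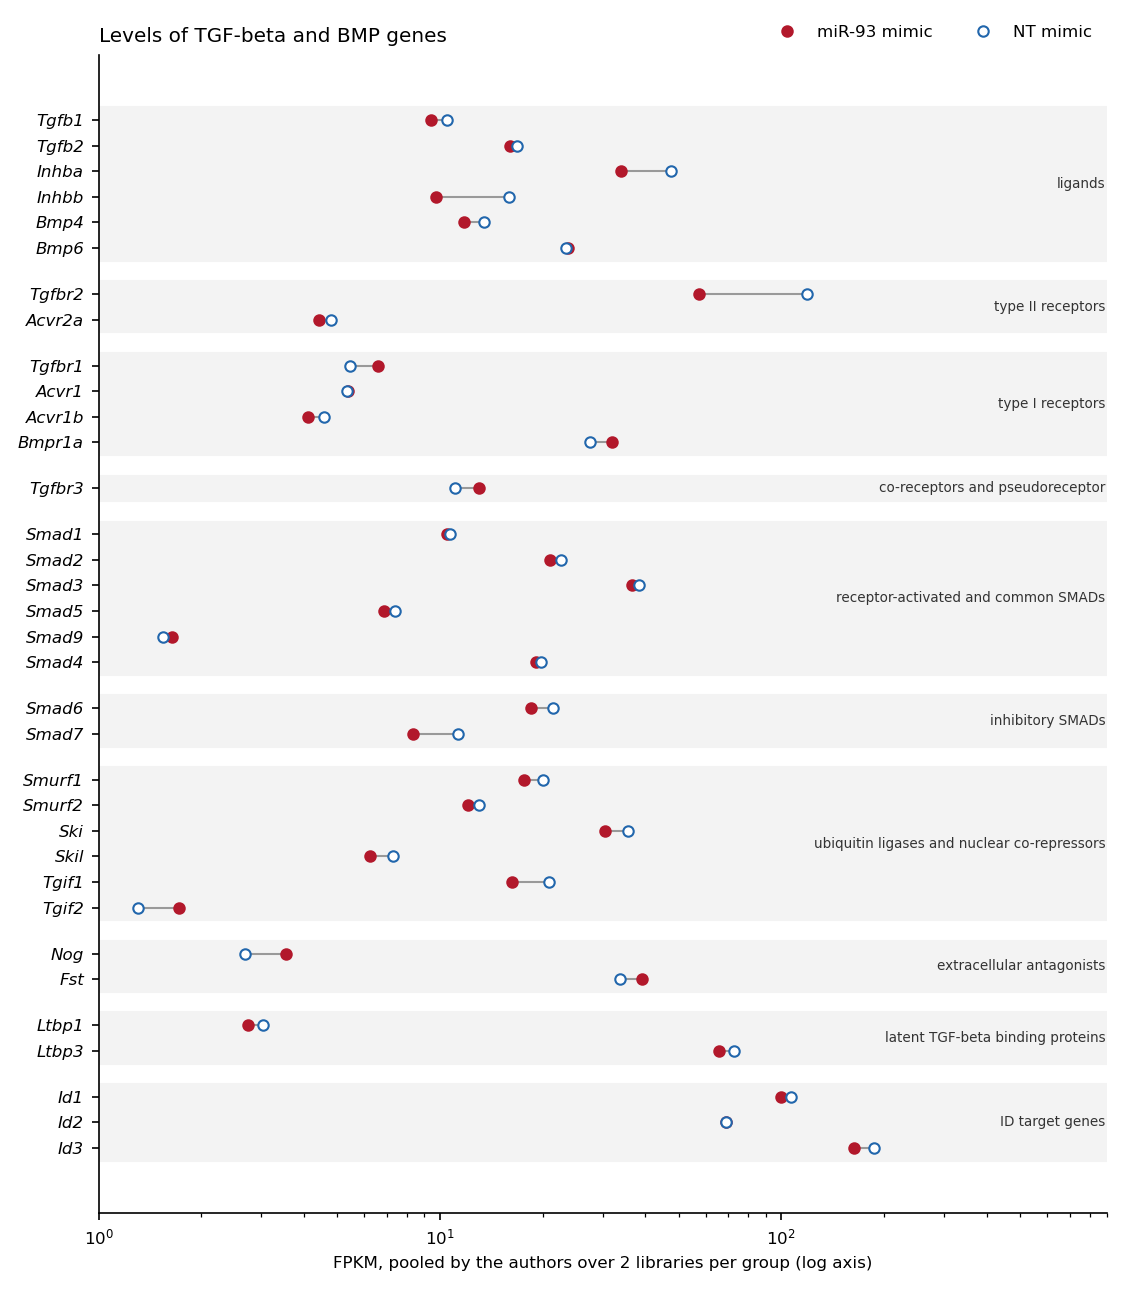
FPKM of the 34 members over the floor, on a log axis, with the miR-93 mimic as filled red points and the NT mimic as open blue points, grouped by role. Each point is a value pooled by the authors over 2 libraries and has no error bar. Tgfbr2 stands at 57.4 with the miR-93 mimic, against 119 with the NT mimic, the widest gap in the plot, while most pairs nearly touch.

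The receptors showed the widest difference. Tgfbr2, the receptor that binds TGF-beta ligands and starts the kinase relay, had 57.4 FPKM with the miR-93 mimic and 119 FPKM with the NT mimic (chr9:115996813-116084481, mm9). This is 2.06-fold lower, a log2 ratio of −1.05. Among the 1749 genes with a mean FPKM from 30 to 100 its log2 ratio was the 9th from the lowest, where the central 95% of genes ran from −0.57 to 0.23. Even so, Tgfbr2 remained the most abundant receptor of the list with either mimic.

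The partner of Tgfbr2 did not share that direction. Tgfbr1, the type I receptor that Tgfbr2 phosphorylates, had 6.60 FPKM with the miR-93 mimic and 5.45 FPKM with the NT mimic (log2 ratio 0.27). The co-receptor gene Tgfbr3 (betaglycan), which presents TGF-beta to Tgfbr2, had 13.1 FPKM with the miR-93 mimic and 11.1 FPKM with the NT mimic (log2 ratio 0.24). On the per-length FPKM scale Tgfbr2 therefore exceeded Tgfbr1 8.70-fold with the miR-93 mimic, against 21.8-fold with the NT mimic. Against Tgfbr3 the excess was 4.40-fold with the miR-93 mimic, against 10.7-fold with the NT mimic.

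Of the activin and BMP receptors, Bmpr1a, a type I receptor for BMP ligands, had 31.8 FPKM with the miR-93 mimic and 27.5 FPKM with the NT mimic (log2 ratio 0.21). The log2 ratios of Tgfbr1, Tgfbr3 and Bmpr1a lay at percentiles 94.8 to 96.0 of genes of like level. The other receptors over the floor differed less. Acvr1, which serves BMP ligands, had 5.38 FPKM with the miR-93 mimic and 5.36 FPKM with the NT mimic. Acvr1b, the type I receptor of activins, had 4.10 FPKM with the miR-93 mimic and 4.57 FPKM with the NT mimic (log2 ratio −0.15). Acvr2a, the type II receptor that activins and some BMP ligands use, had 4.42 FPKM with the miR-93 mimic and 4.78 FPKM with the NT mimic (log2 ratio −0.11).

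The BMP type II receptor gene Bmpr2 entered no count, because its row also named LOC100504533 and the 2 genes cannot be told apart there. That row had 15.4 FPKM with the miR-93 mimic and 17.7 FPKM with the NT mimic (log2 ratio −0.21). The receptors below the floor were Acvr2b, Acvrl1, Bmpr1b and Eng, together with the pseudoreceptor gene Bambi, a decoy that lacks a kinase. Acvrl1, known from endothelial cells, had 0.436 FPKM with the miR-93 mimic and 0.239 FPKM with the NT mimic, and the endothelial co-receptor gene Eng had 0.731 FPKM with the miR-93 mimic and 0.698 FPKM with the NT mimic. Acvr2b had 0.825 FPKM with the miR-93 mimic and 0.728 FPKM with the NT mimic, and Bmpr1b and Bambi lay under 0.1 FPKM in both groups.

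Among the ligands the pair of activin subunit genes was lower with the miR-93 mimic and the TGF-beta and BMP genes differed little. Inhbb, which encodes the subunit of activin B, had 9.74 FPKM with the miR-93 mimic and 15.9 FPKM with the NT mimic (chr1:121312042-121318825, mm9), a 1.62-fold lower level and a log2 ratio of −0.70. It was the 33rd from the lowest of 3278 genes with a mean FPKM from 10 to 30. Inhba, which encodes the subunit of activin A, had 33.8 FPKM with the miR-93 mimic and 47.7 FPKM with the NT mimic (chr13:16106308-16119044, mm9). Its log2 ratio of −0.49 was just short of the call, and it was the 66th from the lowest of the 1749 genes from 30 to 100 FPKM. Of the ligands among the members, Inhba was the most abundant with both mimics. The ligand gene Gdf15, which is not a member, had 549 FPKM with the miR-93 mimic and 769 FPKM with the NT mimic (log2 ratio −0.49). The 3′ UTR of Inhbb held no match to the miR-93 seed, and that of Inhba held 3 matches of the 6mer class.

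The activin antagonist among the members differed in the opposite direction. Follistatin (Fst), which binds activins and keeps them from their receptors, had 39.0 FPKM with the miR-93 mimic and 33.7 FPKM with the NT mimic (log2 ratio 0.21), the 55th from the highest of the 1749 genes from 30 to 100 FPKM. The ratio of Inhba to Fst was thus 0.868 with the miR-93 mimic, against 1.41 with the NT mimic. Besides this ratio and those of Tgfbr2, that of Bmpr1a to Acvr1 was 5.91 with the miR-93 mimic, against 5.14 with the NT mimic. That of Smad7 to Smad3 was 0.229 with the miR-93 mimic, against 0.296 with the NT mimic. These ratios of gene pairs were not part of the plan and had no test. The follistatin-like gene Fstl3, which is not a member, went the other way from Fst. It had 3.75 FPKM with the miR-93 mimic and 4.53 FPKM with the NT mimic (log2 ratio −0.27). The BMP antagonist noggin (Nog) had 3.54 FPKM with the miR-93 mimic and 2.68 FPKM with the NT mimic. Its log2 ratio of 0.39 was the highest of the 34 members and still within the call limits, and it ranked 79th from the highest of 3314 genes from 3 to 10 FPKM. Gremlin (Grem1), a BMP antagonist linked to kidney fibrosis, stood at 0.00657 FPKM with the miR-93 mimic and was listed at 0 with the NT mimic.

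Tgfb1 and Tgfb2, the TGF-beta genes over the floor, had 9.42 and 16.1 FPKM with the miR-93 mimic, against 10.5 and 16.8 FPKM with the NT mimic. Their log2 ratios of −0.15 and −0.07 lay at percentiles 35.2 and 57.3 of genes of like level. Bmp4 had 11.8 FPKM with the miR-93 mimic and 13.4 FPKM with the NT mimic (log2 ratio −0.19). Bmp6 had 23.7 FPKM with the miR-93 mimic and 23.3 FPKM with the NT mimic (log2 ratio 0.03). Both encode BMP ligands, and neither was near the call limits. Tgfb3, Bmp2 and Bmp7 lay below the floor, at 0.321, 0.489 and 0.536 FPKM with the miR-93 mimic, against 0.308, 0.340 and 0.666 FPKM with the NT mimic.

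**Figure D2:**
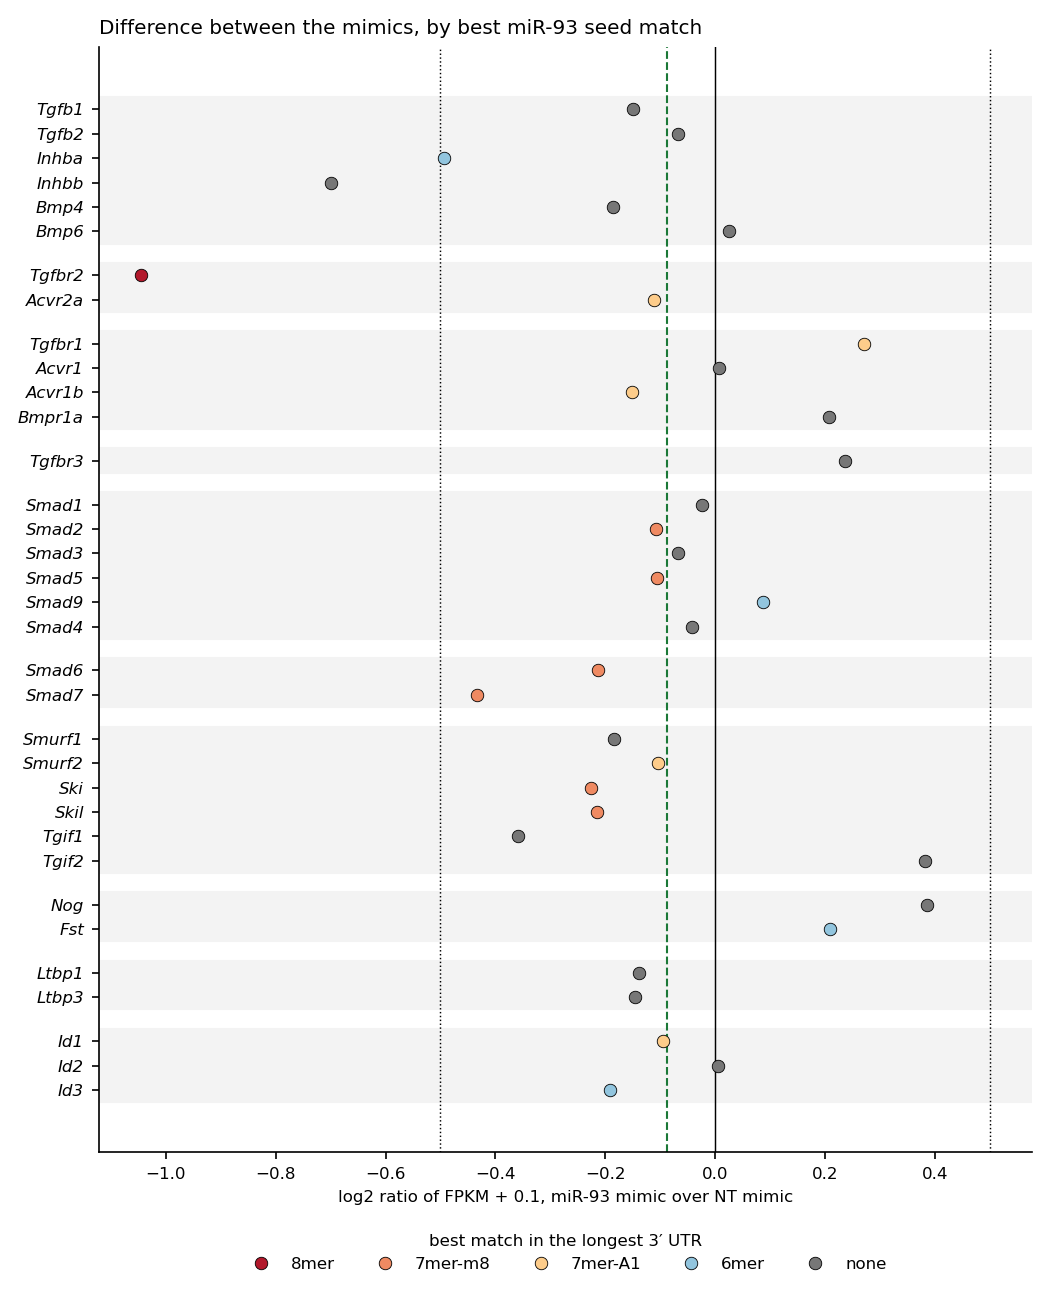
The log2 ratio of FPKM plus 0.1, miR-93 mimic over NT mimic, for the 34 members over the floor, by role and coloured by the best miR-93 seed match in the longest 3′ UTR. Dotted lines mark −0.5 and 0.5 and the dashed line the median of all genes, −0.09. Tgfbr2, the one 8mer, lies at −1.05 and Inhbb, without a match, at −0.70.

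The SMAD genes that carry the signal differed little between the mimics. All 6 receptor-activated and common SMADs passed the floor, with log2 ratios from −0.11 to 0.09. Smad3 was the most abundant, at 36.5 FPKM with the miR-93 mimic and 38.3 FPKM with the NT mimic, although its row was marked FAIL by the authors' software. Smad2 had 21.0 FPKM with the miR-93 mimic and 22.6 FPKM with the NT mimic. The common partner Smad4 had 19.1 FPKM with the miR-93 mimic and 19.7 FPKM with the NT mimic.

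On the BMP side, Smad1 had 10.5 FPKM with the miR-93 mimic and 10.7 FPKM with the NT mimic, and Smad5 had 6.84 FPKM with the miR-93 mimic and 7.37 FPKM with the NT mimic. Smad9 was scarce, at 1.64 FPKM with the miR-93 mimic and 1.54 FPKM with the NT mimic. Log2 ratios this small lie well inside the spread of genes of like level, and without values per library it cannot be said whether any of the 6 differed.

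The inhibitory SMADs were both lower than the median gene. Smad7, which blocks type I receptors and recruits SMURF ubiquitin ligases to them, had 8.37 FPKM with the miR-93 mimic and 11.3 FPKM with the NT mimic. Its log2 ratio of −0.43 was the lowest of the members other than Tgfbr2 and the activin subunits, at percentile 5.31 of genes from 3 to 10 FPKM. Smad6, which mainly restrains BMP signals, had 18.5 FPKM with the miR-93 mimic and 21.4 FPKM with the NT mimic (log2 ratio −0.21). Both are known target genes of the pathway they inhibit, and both 3′ UTRs held a 7mer-m8 match.

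Of the intracellular restraints 5 of 6 lay below 0 and none was called, where 69.5% of all genes lay below 0. Their median was −0.20, against −0.09 over all genes. Tgif1, a homeodomain co-repressor, had 16.3 FPKM with the miR-93 mimic and 20.9 FPKM with the NT mimic, a log2 ratio of −0.36. Its paralogue Tgif2 pointed the other way from a low level, at 1.72 FPKM with the miR-93 mimic and 1.30 FPKM with the NT mimic (log2 ratio 0.38). The proto-oncogene co-repressors Ski and Skil, which bind SMADs on DNA, had log2 ratios of −0.23 and −0.21. Ski had 30.4 FPKM with the miR-93 mimic and 35.6 FPKM with the NT mimic, and Skil had 6.25 FPKM with the miR-93 mimic and 7.28 FPKM with the NT mimic. The ubiquitin ligase genes Smurf1 and Smurf2 had 17.6 and 12.1 FPKM with the miR-93 mimic, against 20.0 and 13.0 FPKM with the NT mimic.

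Latent TGF-beta binding proteins tether the inactive ligand to the matrix. Ltbp3, the most abundant, had 65.6 FPKM with the miR-93 mimic and 72.6 FPKM with the NT mimic (log2 ratio −0.15). Ltbp1 had 2.74 FPKM with the miR-93 mimic and 3.03 FPKM with the NT mimic (log2 ratio −0.14). Ltbp2 and Ltbp4 lay below the floor, at 0.0834 and 0.323 FPKM with the miR-93 mimic, against 0.0704 and 0.304 FPKM with the NT mimic.

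The ID genes, which encode inhibitors of basic helix-loop-helix factors and are classic BMP targets, were among the most abundant members. Id3, the highest member with either mimic, had 163 FPKM with the miR-93 mimic and 186 FPKM with the NT mimic (log2 ratio −0.19). Id1 had 99.8 FPKM with the miR-93 mimic and 107 FPKM with the NT mimic (log2 ratio −0.09). Id2 had 69.0 FPKM with the miR-93 mimic and 68.7 FPKM with the NT mimic (log2 ratio 0.01). The ratios of all 3 lay between percentiles 29.1 and 77.8 of genes of like level.

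**Figure D3:**
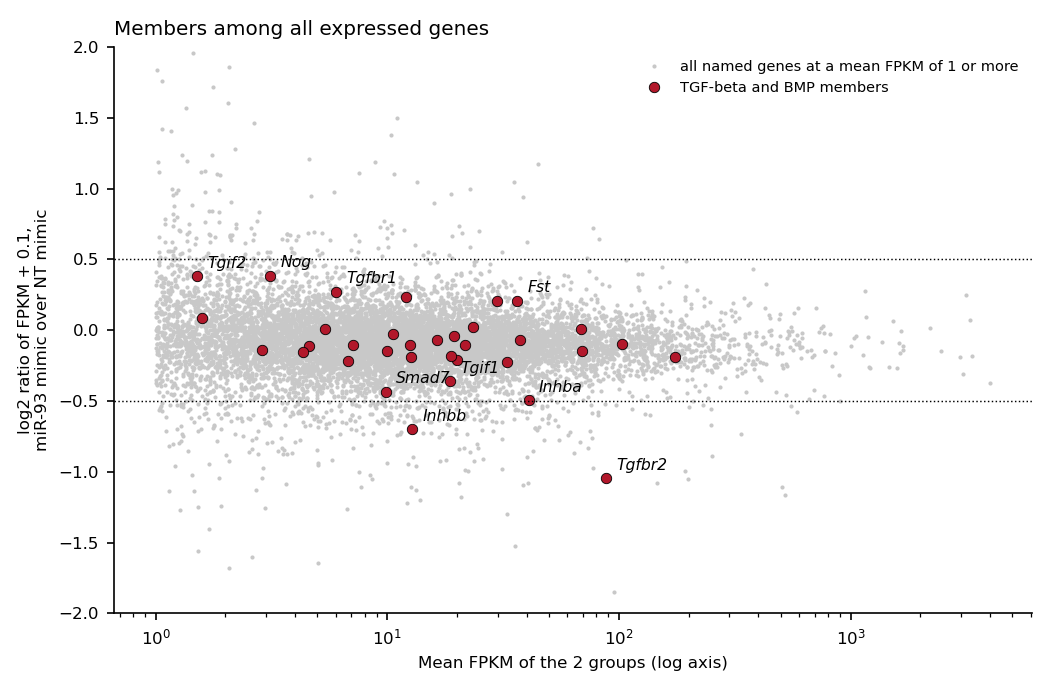
Each grey point is a named gene with a mean FPKM of at least 1, at its mean FPKM on a log axis and its log2 ratio, miR-93 mimic over NT mimic, and the red points are the 34 members. The 44 genes beyond a log2 ratio of 2 in either direction are not drawn. Tgfbr2 and Inhbb lie below the dotted line at −0.5, and the other members lie within the band.

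The series was made to find miR-93 targets, so the members were set beside their seed matches. A match of 7 or 8 bases was present in 12 of the 34 members (35.3%), against 22.5% of the 10015 genes with an annotated 3′ UTR. The 3′ UTRs of the members were also longer, with a median of 1980 bases against 1205. Of the 12 members with such a match, 1 was called lower (Tgfbr2; 8.33%), against 8.65% of all genes with a match. Of the 22 without, 1 was called lower (Inhbb; 4.55%), against 2.16% of all genes without a match. These shares of the members rest on a single gene each.

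The members with a match stood almost all on the low side, but by their median no lower than all genes with a match. Of the 12, 11 lay below the median of all genes (91.7%, against 61.0% of all genes with a match), and of the 22 without, 9 did (40.9%, against 47.1%). Tgfbr1 was the exception, with a 7mer-A1 and a log2 ratio of 0.27. Id1, Smurf2, Smad5, Smad2 and Acvr2a lay only narrowly below that median of −0.09, with log2 ratios from −0.11 to −0.09. At −0.25 or less were 2 of the 12 (16.7%), against 29.1% of all genes with a match. Of the 22 without, 3 were (13.6%), against 13.7% of all genes without a match. The median of the 12 was −0.13, as was that of all genes with a match. The 6 members whose best match was a 7mer-m8 (Smad7, Ski, Skil, Smad6, Smad2 and Smad5) had a median of −0.21, against −0.14 over 1052 such genes. The 5 with a 7mer-A1 (Acvr1b, Acvr2a, Smurf2, Id1 and Tgfbr1) had a median of −0.10, against −0.08 over 742 genes. The 18 members with no match at all had a median of −0.05, against −0.08 over 5790 genes. The 8mer of Tgfbr2 goes with the lowest ratio of the list, where 460 genes with an 8mer had a median of −0.26. These shares were read after the members' values were known and had no test.

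**Figure D4:**
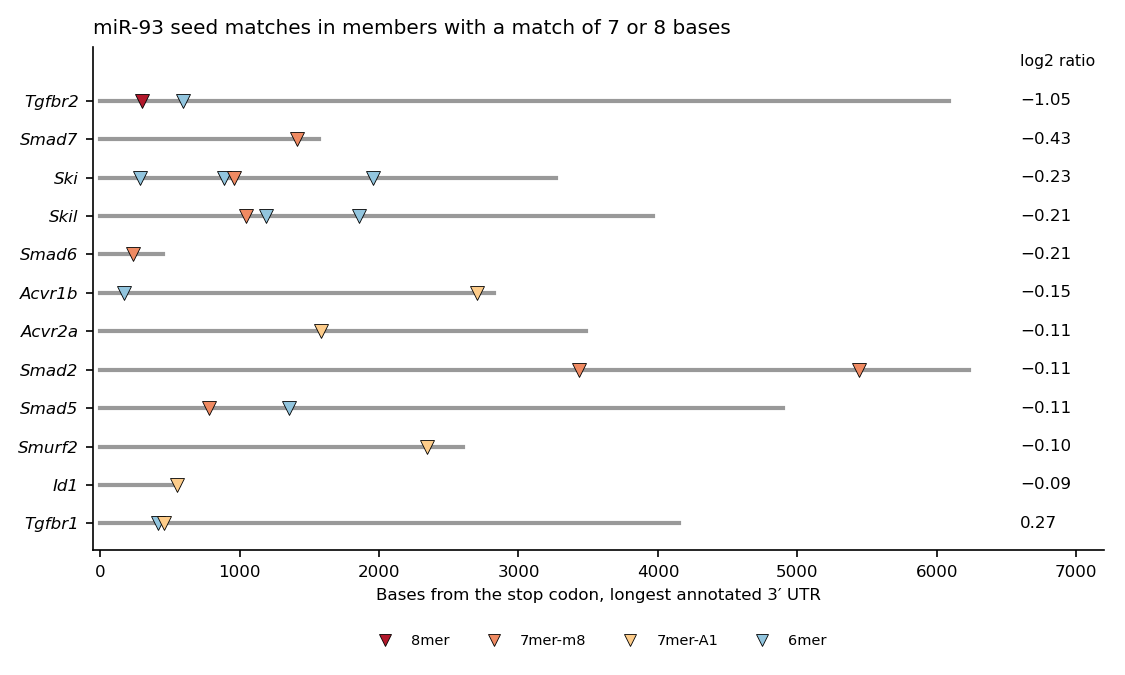
Seed matches along the longest annotated 3′ UTR of the 12 members with a match of 7 or 8 bases, in bases from the stop codon, with the log2 ratio of each gene at the right. Grey lines are the 3′ UTRs and triangles the matches by class. The 8mer of Tgfbr2 starts at base 298 of 6085, and the ratios run from −1.05 to 0.27.

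The 7mer-m8 sites differed in place as well as in flanks. The site of Smad6 lay in a 3′ UTR of 448 bases, and that of Smad5, at base 778, in one of 4899. Smad2 carried 2 such sites, at bases 3434 and 5445 of 6233, with a log2 ratio of −0.11. Smad7 carried 1, at base 1414 of 1570, with −0.43. The number of 7mer-m8 sites did not order the ratios of these genes. Bmpr2 carried 2 sites of this class in 8529 bases.

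Genes of the same pathway outside the list gave 3 calls, all lower, among the 55 of 102 that passed the floor (5 had no row under their name). The 3 were 5.45% of the 55, against 3.77% of all genes called lower, and none was higher, against 1.83% of all genes. Gdf11, a ligand related to myostatin, had 8.40 FPKM with the miR-93 mimic and 16.3 FPKM with the NT mimic (log2 ratio −0.95), and its 3′ UTR held an 8mer. Pmepa1, a TGF-beta target that keeps SMADs from the receptor, had 21.0 FPKM with the miR-93 mimic and 41.6 FPKM with the NT mimic (log2 ratio −0.98), with no match. The row of Pmepa1 was marked FAIL by the authors' software, as that of Smad3 was. The cell cycle inhibitor gene Cdkn1a (p21), which many stimuli besides TGF-beta induce, had 453 FPKM with the miR-93 mimic and 657 FPKM with the NT mimic (log2 ratio −0.54), with a 7mer-m8.

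By list, 1 of 11 TGF-beta response genes over the floor was called lower and 8 lay below 0 (72.7%, against 69.5% of all genes). Their share below 0 was thus near the background, with a median of −0.15 against −0.09. At −0.25 or less, however, were 4 of the 11 (36.4%), against 17.4% of all genes. Besides Cdkn1a these were Fn1 at −0.42, Zeb2 at −0.255 and Ctgf at −0.253. Acta2, the smooth muscle actin gene, was the highest of the 11 at a log2 ratio of 0.28, with 1260 FPKM with the miR-93 mimic and 1041 FPKM with the NT mimic. All 11 extracellular antagonists and activators outside the members lay below 0, none past the call, with a median of −0.30, where 69.5% of all genes lay below 0. At −0.25 or less were 7 of the 11 (63.6%), against 17.4% of all genes. The lowest was Dand5, an antagonist of nodal and BMP ligands, at −0.47. Among them were furin (Furin), which cleaves the ligand precursors, and the integrin gene Itgav, whose product helps to release TGF-beta, at −0.44 and −0.43. Thrombospondin 1 (Thbs1), another activator, was listed at 0 in both groups with a status of HIDATA, a mark for loci with too many fragments, so its level could not be read.

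The 4 other ligands over the floor (Gdf11, Gdf15, Bmp1 and Bmp3) had a median of −0.21. At −0.25 or less were 2 of them (50%, against 17.4% of all genes), and at 0.25 or more 1 (25%, against 6.12%). The 3 receptors and co-receptors had a median of −0.32, with the BMP co-receptor genes Rgmb and Rgma at −0.43 and −0.32 and an 8mer in each. The 20 intracellular regulators centred near 0 (median −0.03), with Pmepa1 as the lowest and the kinase gene Hipk2 as the highest at 0.40. Zfyve9 (SARA), which presents SMADs to the receptor, stood at −0.48 with an 8mer, whereas the ubiquitin ligase gene Nedd4l, also with an 8mer, stood at −0.06. The 6 BMP response genes split, with 4 between 0.28 and 0.40 (Id4, Hey1, Msx1 and Atoh8) and Hey2 and Runx2 at −0.25 and −0.39. At 0.25 or more were thus 66.7% of them, against 6.12% of all genes. At −0.25 or less were 33.3%, against 17.4%. Their median was 0.30, against −0.09 over all genes, and these shares rest on 6 genes and had no test. Hey1 and Hey2 were near the floor, at 1.42 and 1.45 FPKM with the miR-93 mimic, against 1.07 and 1.74 FPKM with the NT mimic. Among genes of like level Hey1 lay at percentile 90.1, Msx1 at 96.6, Atoh8 at 97.3 and Id4 at 97.9, with Hey2 at 18.2 and Runx2 at 9.44. The BMP targets Id1, Id2 and Id3, counted among the members, had log2 ratios of −0.09, 0.01 and −0.19. Genes named from these lists without a call were picked after their values were seen.

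**Figure D5:**
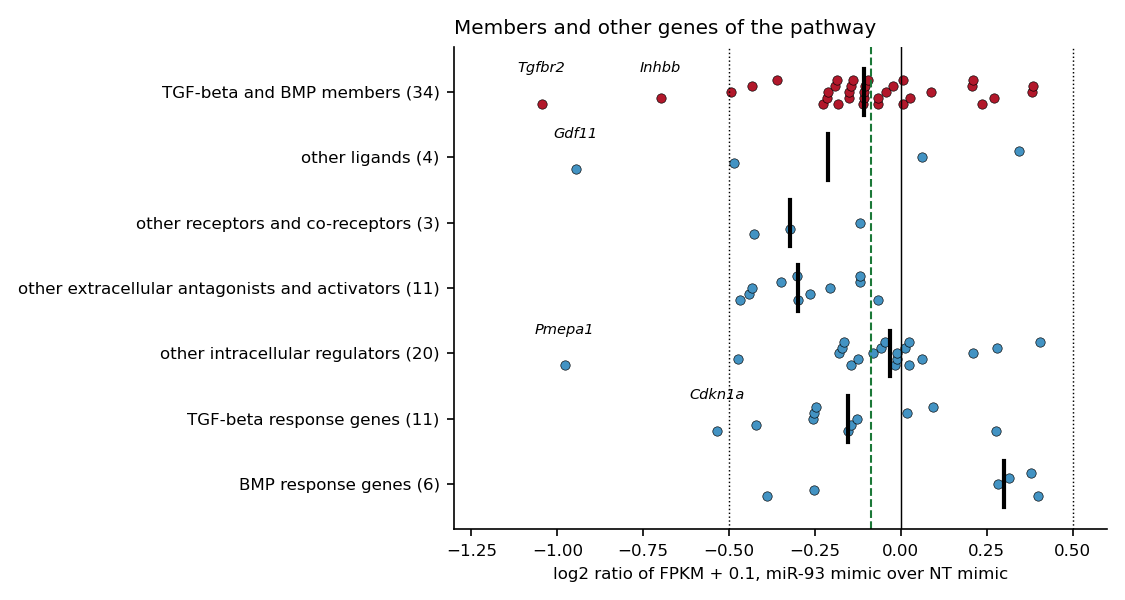
The log2 ratio of FPKM plus 0.1, miR-93 mimic over NT mimic, of the members (red) and of 6 lists of other pathway genes (blue), with the number over the floor in brackets. Black bars are medians, dotted lines −0.5 and 0.5, the dashed line the median of all genes. Tgfbr2, Inhbb, Gdf11, Pmepa1 and Cdkn1a are past −0.5 and no gene is past 0.5.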

How the data were processed

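According to the study's methods and the submitters' processing notes, poly-A RNA libraries were sequenced as paired ends, checked with FastQC and Trimmomatic, and aligned to mouse build mm9 with TopHat2 2.0.4. The authors quantified genes with Cufflinks and deposited 1 FPKM value per gene and group, normalised and pooled by Cuffdiff2. Neither other versions nor the strand setting of the counting is given in the sources used here, so overlapping genes may share reads. The deposited workbook was read as 5 tables. Columns with the authors' fold changes, test statistics and p-values, and the 4 shorter sheets that hold them, were not used.

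Rows without a gene name (3650), with several names (287) or with a name turned into a date (22) were left out. A gene on several rows was read from the most abundant one (no member was). Locus starts were counted from 1. The floor was a mean FPKM of 1, the pseudocount 0.1 and the call an absolute log2 ratio of 0.5, a limit taken from the study's methods. The study used that limit together with a false discovery rate and a p-value cutoff, neither of which was applied here. Ranks and percentiles were taken within level bins, from the lowest log2 ratio unless stated. From GENCODE M21 (GRCm38), the longest 3′ UTR per gene (minimum 30 bases) was matched by symbol to 93.0% of genes over the floor, 1052 of them by an older symbol. Alternatives were other pseudocounts, floors, call limits, a centred ratio, summed rows, the shortest 3′ UTR and longer matches. All members were named. Of the other pathway lists the rule named those called. One podocyte marker and one TGF-beta response gene are not reported here and enter no count of their lists. Members and lists were chosen with earlier results of these data known. Python 3.11.15, numpy 2.4.6 and pandas 2.3.3 were used, after a check of the steps on made-up data.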

Additional observations from a re-analysis of the deposited data

How the results depend on the processing

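Tgfbr2 and Inhbb were the members called lower with a pseudocount of 0.01 or 1, with a floor of 5 or none, after centring on the median of all genes, with summed rows, and, in an alternative chosen after seeing the data, with rows of status OK alone. In those settings 2.39% to 3.88% of all genes were called lower. A call limit of 0.25 gave 5 lower (Inhba, Smad7 and Tgif1 were added), against 17.4% of all genes. It gave 3 higher (Nog, Tgfbr1 and Tgif2), against 6.12%. A limit of 1 left 1 lower (Tgfbr2), against 0.446% of all genes. Without a floor, among genes with an FPKM above 0 in both groups, 1 of 44 members was higher, against 5.51% of all such genes. This was Acvrl1, at 0.436 FPKM with the miR-93 mimic and 0.239 FPKM with the NT mimic. The median of the members ran from −0.11 to −0.02, with −0.02 after centring. The count of members with a match fell to 8 with the shortest 3′ UTR and to 7 without the 7mer-A1 class, with Tgfbr2 the 1 called lower in each. No paired analysis was possible because the values used are pooled over the libraries of each group, so neither a replicate block nor leaving out a library could be run. For the same reason the precision of every ratio is unknown.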
